A study of Homo sapiens with 4 samples.

Results

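The 36 genes described here are 22 mitochondrial enzymes of fatty acid beta oxidation and its side routes, 11 peroxisomal enzymes and transporters, and 3 regulators of the pathway. They were chosen by symbol from a fixed list, with earlier results of these data known. All 36 have a row among the 59050 genes of the deposited count table. Transcripts were measured by RNA-seq in HUES8, an established line of human embryonic stem cells, grown on Matrigel in mTeSR1 medium. There were 2 libraries labelled CPT2 KO and 2 labelled WT. The parental line and medium were common to both groups, and the labels give for both the treatment WT. They do not say whether the knockout line was 1 clone, how it was made, or whether replicates came from separate cultures. P-values below reflect library-to-library spread alone, and this spread may be purely technical. The title places the work in lipid metabolism and definitive endoderm differentiation. The question addressed is how transcripts differ with the genotype of CPT2, the enzyme that hands long-chain acyl groups to mitochondrial beta oxidation.

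Beta oxidation shortens an acyl-CoA in repeated turns of dehydrogenation, hydration, a second oxidation and thiolysis, each releasing acetyl-CoA. In mitochondria the first step is made by acyl-CoA dehydrogenases of different chain length, which pass electrons through electron transfer flavoprotein to the respiratory chain. Peroxisomes start very long and branched chains with acyl-CoA oxidases and use their own hydratases, dehydrogenases and thiolases. Transcription of many of these genes in liver, heart and muscle is controlled by the nuclear receptors PPARA and PPARD and the coactivator PPARGC1A.

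Totals were 20219396 and 16887789 counts in the libraries labelled CPT2 KO, and 18356754 and 20460031 in those labelled WT. The CPT2 transcript was higher in the libraries labelled CPT2 KO, at 11.5 and 10.2 CPM (counts scaled to library size). It had 2.82 and 3.49 CPM in those labelled WT. Its log2 fold change was 1.78 (SE 0.27, edgeR adjusted p = 0.0218). Leaving out either library labelled CPT2 KO ended this call, at edgeR adjusted p = 0.25 for replicate 1 and 0.0663 for replicate 2. Every difference below is therefore stated between libraries as labelled, CPT2 KO over WT. Whether the labels were exchanged, or the knockout left the CPT2 transcript in place, was not tested. An exchange would turn the sign of every difference. The 2 libraries labelled CPT2 KO lay 10.5 chi-square units per degree of freedom from each other, and the 2 labelled WT 39.6. Replicate 1 labelled WT stood apart, at 45.8 and 53.3 from the libraries labelled CPT2 KO, where replicate 2 labelled WT lay at 12.3 and 12.6. Its summed level of 15 hypoxia response genes was 3545 TPM (shares of transcripts, corrected for gene length), against 1231 and 996 TPM in the libraries labelled CPT2 KO and 1125 TPM in the other library labelled WT. Mitochondrially encoded transcripts took 4.15% of its counts and 7.21% to 7.84% in the other 3 libraries. Of 11 pluripotency markers, 0 were called, and their summed level was 9168 and 9873 TPM in the libraries labelled CPT2 KO and 10494 and 9696 TPM in those labelled WT. Mesendoderm and endoderm markers summed to 594 and 100.4 TPM in the libraries labelled CPT2 KO, against 12 and 8.37 TPM in those labelled WT, with FGF8 called higher among 10 tested in edgeR. That count was 7 of 10 with DESeq2 and 8 of 10 with the replicate block. Of all tested genes, 0.416% were called in edgeR, 1.10% with DESeq2 and 2.12% with the replicate block. The median log2 fold change of the 10 markers in edgeR was 4.16. Leaving out any library gave medians between 3.19 and 5.09, over 9 to 12 tested markers. Of 9 tested neuroectoderm markers SOX1 and SIX6 were called lower, with 0 called by limma-voom or without either library labelled CPT2 KO, and the list summed to 334 and 281 TPM against 326 and 292 TPM. Fibroblast markers summed to 204 and 194 TPM in the libraries labelled CPT2 KO and 261 and 239 TPM in those labelled WT, with 0 of 5 tested called. Trophoblast and amnion markers had 0 of 2 tested called, lay between 8.47 and 9.86 TPM in all 4 libraries, and included CGA and CGB5 at 0 counts throughout. The part of these markers in the results below was not tested. In such bulk libraries fewer cells of a type and less RNA per cell cannot be told apart.

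HADHA and HADHB, which encode the alpha and beta subunits of the mitochondrial trifunctional protein, are transcribed in opposite directions from neighbouring start sites on chromosome 2. The RefSeq start sites lie 307 bases apart (GRCh38.p14), HADHA at 26244632 on the minus strand and HADHB at 26244939 on the plus strand. The 250 bases before the HADHB start are shown because this pair shares an upstream region and its transcripts can be compared as partners. Capitals mark the 194 bases that also lie within 250 bases before the HADHA start (chr2:26244689-26244938, plus strand, from RefSeq).
HADHA and HADHB upstream region: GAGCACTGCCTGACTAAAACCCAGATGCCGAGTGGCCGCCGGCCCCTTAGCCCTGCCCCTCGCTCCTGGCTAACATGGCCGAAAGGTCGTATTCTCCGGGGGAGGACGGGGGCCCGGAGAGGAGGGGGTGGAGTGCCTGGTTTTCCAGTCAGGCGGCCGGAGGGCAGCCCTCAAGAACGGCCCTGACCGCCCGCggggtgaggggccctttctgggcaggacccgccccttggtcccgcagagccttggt
The stretch is 69.2% G and C. Promoter windows of 300 bases were found for 30 of the 36 members and searched on both strands, without mismatches. The DR1 element, the direct repeat known to bind PPAR with its partner RXR, was in 0 of the 30 windows and in 0.0228% of all 35116 windows. The ERR element TCAAGGTCA was in 0 of 30 and in 0.353% of all. The single site AGGTCA, which both of these contain, was in 1 of 30 members, ACAD10, and in 13.8% of all windows. The NRF1 element was in 2 of 30 (6.67%), ACAD9 and ABCD3, and in 5.78% of all.

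Levels differed far more between members than between libraries. By mean TPM over the 4 libraries, a scale corrected for gene length, HADHA was the highest at 193 TPM, above 96.4% of tested genes. ECHS1, the short-chain enoyl-CoA hydratase, followed at 162 TPM and HSD17B10, a dehydrogenase of isoleucine breakdown that is also a subunit of mitochondrial RNase P, at 150.5 TPM. The ranges over the libraries were 156 to 248 TPM for HADHA, 153 to 173 TPM for ECHS1 and 144 to 160 TPM for HSD17B10. These ranges overlapped, but within each of the 4 libraries HADHA was above ECHS1 and ECHS1 above HSD17B10. HSD17B4, the D-bifunctional enzyme of peroxisomes, was the highest peroxisomal member at 126 TPM (110 to 144). It held 46.7% and 42.1% of the summed peroxisomal TPM in the libraries labelled CPT2 KO, against 44.3% and 43.3% in those labelled WT. The order by TPM depends on the deposited gene lengths, 4331 bases for HADHA, 10631 for HSD17B4, 1277 for ECHS1 and 1115 for HSD17B10. In CPM, which ignores length, HSD17B4 was above HADHA. Group means were 375 against 216 CPM as labelled CPT2 KO, and 381 against 252 CPM as labelled WT. ACADVL, ACAA2 and ACADM, for the very long-chain dehydrogenase, the mitochondrial thiolase and the medium-chain dehydrogenase, had 91.7, 79.5 and 52.8 TPM.

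**Figure D1:**
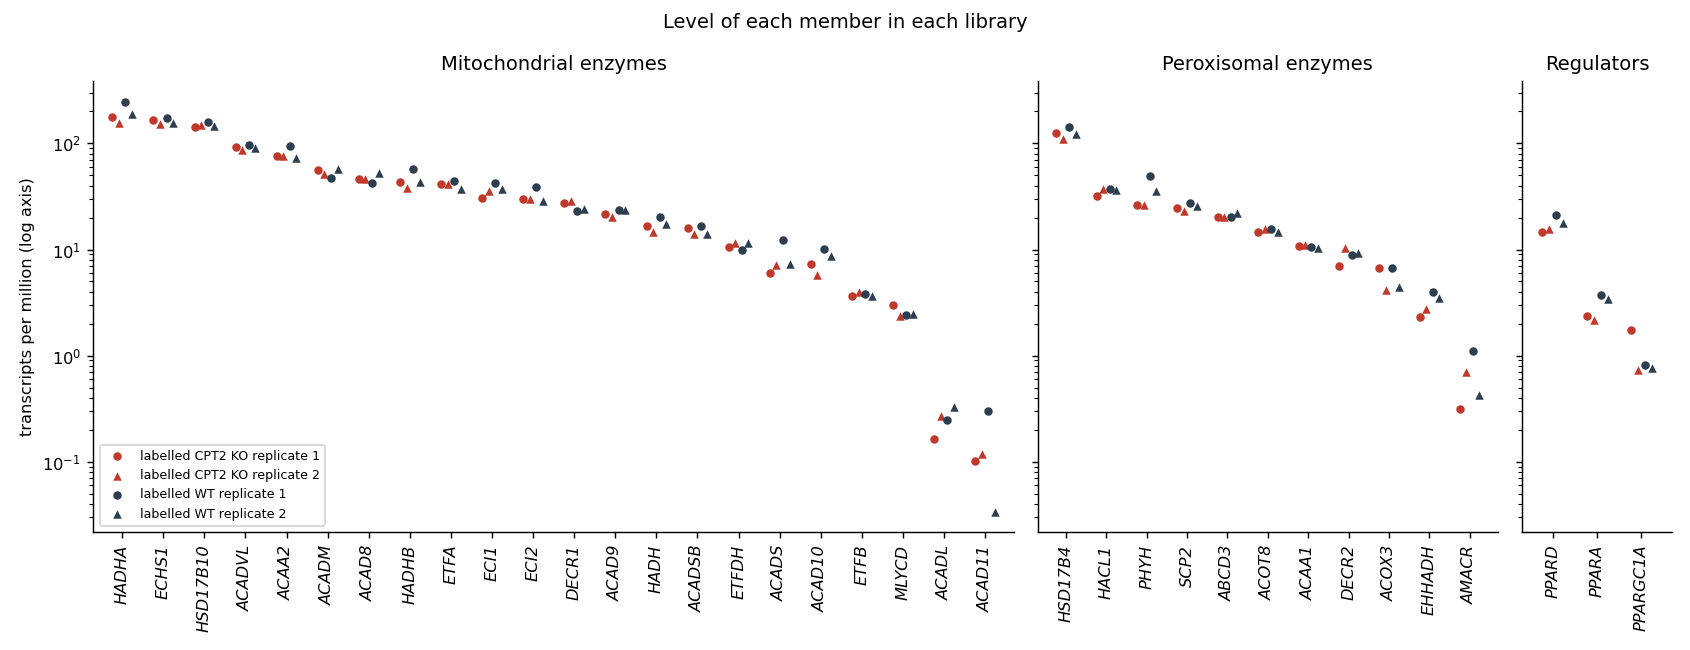
Level of all 36 members in TPM (log axis) in each library, with mitochondrial enzymes, peroxisomal enzymes and regulators in separate panels and ordered by mean level. Red marks the libraries labelled CPT2 KO and dark blue those labelled WT, with circles for replicate 1 and triangles for replicate 2. HADHA stands highest at a mean of 193 TPM, and ACAD11 lowest at 0.138 TPM.

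At the low end, ACADL, a long-chain dehydrogenase, had 5 and 7 counts in the libraries labelled CPT2 KO and 6 and 10 in those labelled WT. ACAD11, a dehydrogenase of hydroxylated acids, had 3 and 3 counts against 7 and 1. These were the 2 members that did not pass the filter on low counts, and no test was made on them. In GENCODE 29 on GRCh38, 83.8% of the exon bases of ACAD11 are shared with other genes. How shared reads were counted is not given in the sources used here, so the ACAD11 level is uncertain. AMACR, the racemase that prepares branched chains, had 0.446 and 1.02 CPM in the libraries labelled CPT2 KO and 1.36 and 0.583 CPM in those labelled WT. It shares 55% of its exon bases with C1QTNF3-AMACR and is uncertain in the same way. On either strand, ECI2, ACAA1, SCP2 and ACOT8 each share over 20% of their exon bases with other genes.

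None of the 34 tested members was called, at an edgeR adjusted p under 0.05 over all 17564 tested genes. Among all tested genes 0.416% were called, 63 higher (0.359%) and 10 lower (0.0569%), so that 0 of 34 lies near the background. The smallest edgeR adjusted p was 0.493 among the 20 tested mitochondrial enzymes, 0.381 among the 11 peroxisomal enzymes and 0.530 among the 3 regulators. At an unadjusted p under 0.05 there were 3 members, PHYH, DECR1 and PPARA, or 8.82% against 9.04% of all tested genes. DESeq2 and limma-voom also called 0 members.

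The mitochondrial enzymes had a median log2 fold change of 0.093 over 20 tested, with 12 above 0 and 8 below and a range of -0.39 to 0.41. The peroxisomal enzymes had a median of 0.052 over 11, with 6 above 0 and 5 below and a range of -0.53 to 0.20. The median of all tested genes was 0.0017. Absolute log2 fold changes were under 0.25 for 16 of the 20 mitochondrial and 8 of the 11 peroxisomal enzymes, against 57.4% of all tested genes. The 95% interval of the log2 fold change lay within 2-fold in both directions for 19 of 20 mitochondrial and 9 of 11 peroxisomal enzymes, against 63.7% of all tested genes. ACADS, EHHADH and AMACR were the enzymes whose interval reached beyond 2-fold. Without replicate 1 labelled WT the medians were 0.035 and -0.017, and without replicate 2 labelled CPT2 KO they were 0.055 and -0.0001.

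**Figure D2:**
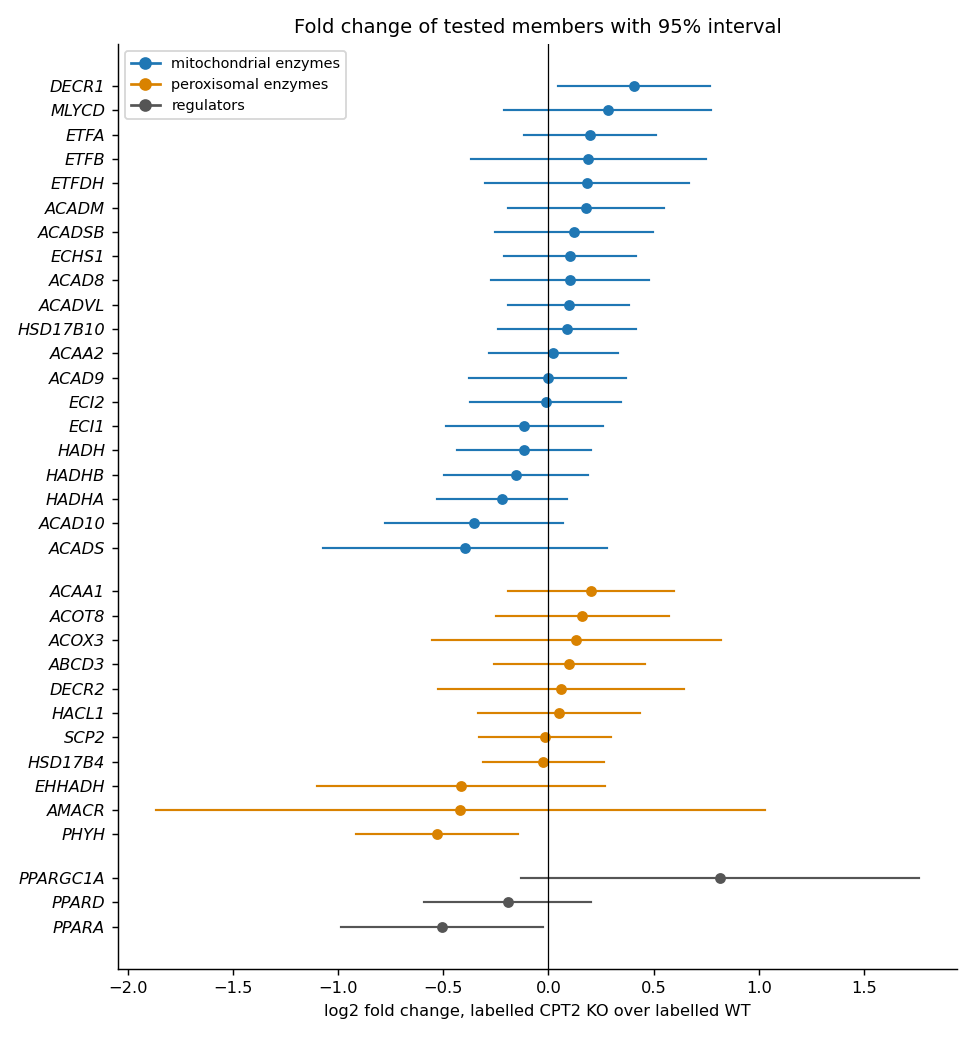
Log2 fold change, CPT2 KO over WT as labelled, of the 34 tested members with its 95% interval from edgeR (n = 2 each). Mitochondrial enzymes run from DECR1 at 0.41 to ACADS at -0.39, and the intervals of PHYH, DECR1 and PPARA leave 0 before any adjustment over genes.

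Among the acyl-CoA dehydrogenases, ACADVL had 131 and 128 CPM in the libraries labelled CPT2 KO, against 118 and 124 CPM in those labelled WT. The groups did not overlap, and the log2 fold change was 0.096 (SE 0.13, edgeR adjusted p = 0.848). ACADM had 78.2 and 74.5 CPM in the libraries labelled CPT2 KO, against 57.1 and 77.6 CPM in those labelled WT. Replicate 1 labelled WT was the low library, and the log2 fold change of 0.18 (edgeR adjusted p = 0.767) was -0.024 without it. ACAD8, the isobutyryl-CoA dehydrogenase of valine breakdown, showed the same low library, with 96.2 and 100 CPM against 76.2 and 107 CPM. ACADS, the short-chain dehydrogenase, was high in that library, with 4.60 and 5.72 CPM in the libraries labelled CPT2 KO against 8.18 and 5.39 CPM in those labelled WT. ACADSB, for short branched chains, and ACAD9, also an assembly factor of complex I, had log2 fold changes of 0.12 and -0.0037. ACAD10 had 19.3 and 15.7 CPM in the libraries labelled CPT2 KO, below the 22.8 and 21.9 CPM of those labelled WT (log2 fold change -0.35, SE 0.19, edgeR adjusted p = 0.612).

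For the trifunctional protein, HADHA had 227 and 205 CPM in the libraries labelled CPT2 KO, against 272 and 232 CPM in those labelled WT. HADHB had 54.0 and 49.1 CPM against 61.8 and 52.9 CPM. Replicate 1 labelled WT was the highest library for both genes, and the groups overlapped for HADHB. The log2 fold changes were -0.22 (SE 0.14, edgeR adjusted p = 0.653) for HADHA and -0.15 (SE 0.15, 0.781) for HADHB. The ratio of their TPM was 4.14 and 4.13 in the libraries labelled CPT2 KO and 4.34 and 4.33 in those labelled WT. These ratios did not overlap between groups. The exact two-sided permutation test gave p = 0.333, the smallest that 2 libraries against 2 allow. HADHB had 1091 and 815 counts in the libraries labelled CPT2 KO and 1141 and 1090 in those labelled WT. How far such a ratio varies by counting alone was not tested. HADHA over HADHB was 1 of 7 ratios computed, none of which can pass at this number of libraries. The ratios of HADHA over HADH and of HSD17B4 over EHHADH also did not overlap between groups.

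The other enzymes of the later steps lay close together. ECHS1 had 62.0 and 59.5 CPM in the libraries labelled CPT2 KO, against 56.0 and 57.0 CPM in those labelled WT (log2 fold change 0.10, SE 0.14, edgeR adjusted p = 0.847). HSD17B10 had 47.1 and 50.9 CPM against 45.2 and 46.8 CPM (0.090, SE 0.15, edgeR adjusted p = 0.882). ACAA2, the thiolase that releases acetyl-CoA, had 109 and 113 CPM against 117 and 101 CPM. Its groups overlapped (0.024, edgeR adjusted p = 0.972). HADH, the dehydrogenase for shorter chains, stood at -0.11 on the log2 scale (edgeR adjusted p = 0.833).

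DECR1, the 2,4-dienoyl-CoA reductase that unsaturated fatty acids need, had the smallest p of the mitochondrial enzymes. It had 40.9 and 44.0 CPM in the libraries labelled CPT2 KO, against 29.5 and 34.4 CPM in those labelled WT, or 42.5 ± 2.16 against 32.0 ± 3.45 CPM (SD, n = 2 each). Both libraries labelled CPT2 KO were above both labelled WT, and the log2 fold change was 0.41 (SE 0.16, edgeR adjusted p = 0.493). Over 14 alternatives it ranged from 0.30 without replicate 1 labelled WT to 0.52 without replicate 2 labelled WT, with adjusted p between 0.118 and 1.0 and 0 calls. The isomerases ECI1 and ECI2, which shift double bonds into position, had log2 fold changes of -0.11 and -0.013.

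The 3 genes of electron transfer had similar log2 fold changes, 0.20 for ETFA, 0.19 for ETFB and 0.18 for ETFDH, and none was called (edgeR adjusted p = 0.695, 0.844 and 0.822). ETFA had 61.7 and 63.5 CPM in the libraries labelled CPT2 KO, against 55.7 and 53.5 CPM in those labelled WT. ETFB had 7.03 and 7.89 CPM against 6.34 and 6.70 CPM, so neither subunit of the flavoprotein overlapped between groups. Of all tested genes, 40.9% also had groups that did not overlap. ETFDH, the oxidoreductase that passes the electrons to ubiquinone, did overlap. Over 14 alternatives the log2 fold change ran from 0.17 to 0.23 for ETFA, 0.11 to 0.28 for ETFB and 0.0091 to 0.38 for ETFDH. The ends for ETFDH came without replicate 1 and without replicate 2 labelled WT. Per length, ETFA stood at 41.1 TPM and ETFB at 3.78 TPM. MLYCD, which removes malonyl-CoA, the inhibitor of acyl entry, had 14.2 and 11.6 CPM against 9.97 and 11.3 CPM (log2 fold change 0.28, SE 0.22, edgeR adjusted p = 0.718).

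Among the peroxisomal genes, PHYH, the phytanoyl-CoA hydroxylase that opens alpha oxidation, had the smallest p of all members. The gene lies on chromosome 10 from 13277796 to 13302412, minus strand (GENCODE 29, GRCh38), and shares no exon bases with other genes. It had 25.9 and 26.8 CPM in the libraries labelled CPT2 KO, against 42.2 and 34 CPM in those labelled WT, or 26.4 ± 0.621 against 38.1 ± 5.79 CPM (SD, n = 2 each). Both libraries labelled CPT2 KO were below both labelled WT, with replicate 1 labelled WT the highest. The log2 fold change was -0.53 (SE 0.17, edgeR adjusted p = 0.381). It was -0.37 without replicate 1 labelled WT (edgeR adjusted p = 0.878) and -0.68 without replicate 2 labelled WT, where it was the member called lower (edgeR adjusted p = 0.0272). In that setting 6.16% of all tested genes were called. HACL1, the lyase of the next step of alpha oxidation, had 28.5 and 34.8 CPM against 29 and 31.9 CPM (0.052 on the log2 scale, edgeR adjusted p = 0.947).

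**Figure D3:**
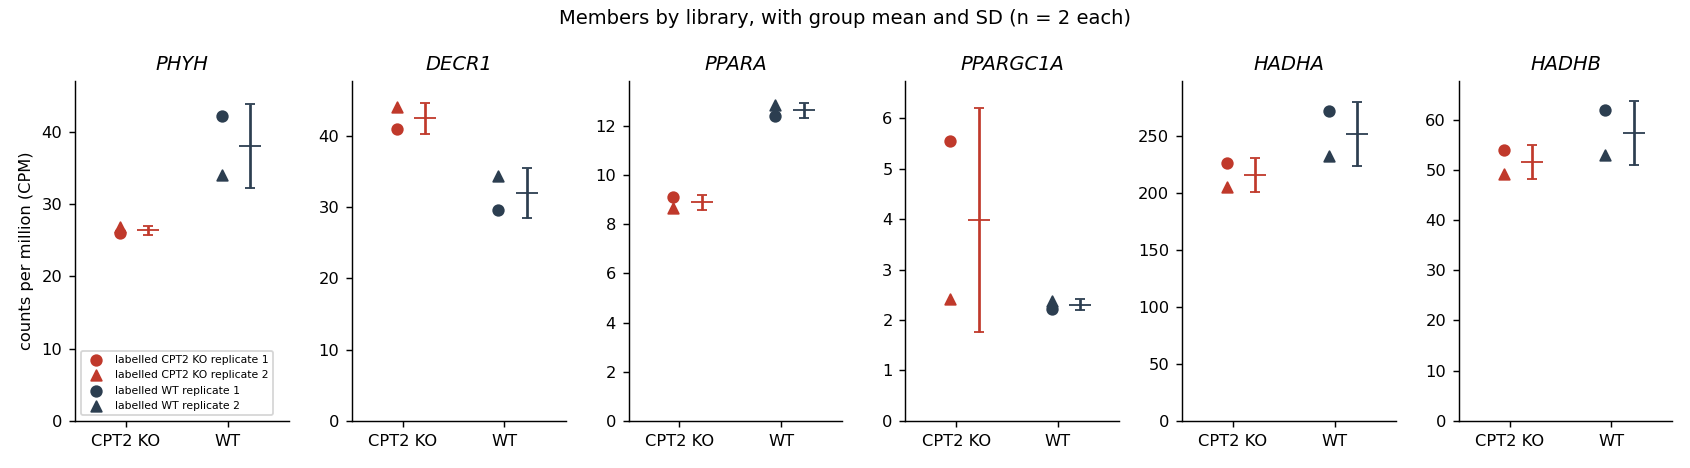
CPM by library for 6 members, with libraries labelled CPT2 KO in red to the left and those labelled WT in dark blue to the right, and the group mean and SD beside the points (n = 2 each). PHYH and PPARA lie lower and DECR1 higher in both libraries labelled CPT2 KO, while PPARGC1A is high in replicate 1 labelled CPT2 KO alone.

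None of the 5 enzymes of the peroxisomal spiral was called. HSD17B4 had 394 and 356 CPM in the libraries labelled CPT2 KO, against 388 and 374 CPM in those labelled WT (log2 fold change -0.024, SE 0.13, edgeR adjusted p = 0.970). SCP2, whose longer product is a thiolase for branched chains, had 58.9 and 57.8 CPM against 57.7 and 60.2 CPM (-0.016, SE 0.14, edgeR adjusted p = 0.983). SCP2 ends 144726 bases before CPT2 starts on the same strand of chromosome 1 (GENCODE 29, GRCh38), and the 2 genes had log2 fold changes of -0.016 and 1.78. EHHADH, the L-bifunctional enzyme, had 3.12 and 3.92 CPM in the libraries labelled CPT2 KO, below the 4.66 and 4.66 CPM of those labelled WT (-0.41, SE 0.31, edgeR adjusted p = 0.705). ACOX3, an oxidase for branched chains, and ACAA1, a thiolase, had log2 fold changes of 0.13 and 0.20, and that of ACOX3 ran from -0.24 to 0.40 with each library left out. ABCD3, the importer of branched and dicarboxylic acyl groups, DECR2, the peroxisomal dienoyl-CoA reductase, and ACOT8, a thioesterase, had 0.099, 0.061 and 0.16. With each library left out ABCD3 ran from -0.040 to 0.25 and DECR2 from -0.28 to 0.35.

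The regulators were low to moderate in level and did not overlap between groups, in CPM. PPARA lies on chromosome 22 from 46150521 to 46243756, plus strand. It had 9.11 and 8.68 CPM in the libraries labelled CPT2 KO, against 12.4 and 12.9 CPM in those labelled WT. Its log2 fold change was -0.51 (SE 0.22, edgeR adjusted p = 0.530) and lay between -0.54 and -0.47 over 14 alternatives, with 0 calls. PPARD had 19.3 and 21.2 CPM against 23.9 and 22.3 CPM, a log2 fold change of -0.19 (SE 0.18, edgeR adjusted p = 0.762). PPARGC1A had 5.54 and 2.41 CPM in the libraries labelled CPT2 KO, against 2.22 and 2.38 CPM in those labelled WT. Only replicate 1 labelled CPT2 KO was high, and the log2 fold change of 0.82 (SE 0.43, edgeR adjusted p = 0.600) was 0.066 without it. Over all tested genes 40.9% had groups that did not overlap in CPM, against 10 of 20 mitochondrial enzymes, 4 of 11 peroxisomal enzymes and 3 of 3 regulators. The libraries labelled CPT2 KO lay above in 10 of 34 members, against 21.1% of all tested genes, and below in 7 of 34, against 19.8%.

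The 2 libraries labelled WT lay further apart than the groups for 16 of 34 tested members, against 10343 of 17564 tested genes. A distance between 2 single libraries varies more than a difference of group means, so these are unlike measures. By part, it held for 9 of 20 mitochondrial enzymes, 7 of 11 peroxisomal enzymes and 0 of 3 regulators. The median distance between the libraries labelled CPT2 KO was 0.12 on the log2 scale for mitochondrial and 0.15 for peroxisomal enzymes, and between those labelled WT it was 0.18 and 0.14. For all tested genes these distances were 0.22 and 0.26. Hypoxia response genes were 1.78 higher on the log2 scale in replicate 1 labelled WT than in the mean of the other 3 libraries, as a median over 15 genes. The same median was -0.089 for the mitochondrial and -0.030 for the peroxisomal enzymes.

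**Figure D4:**
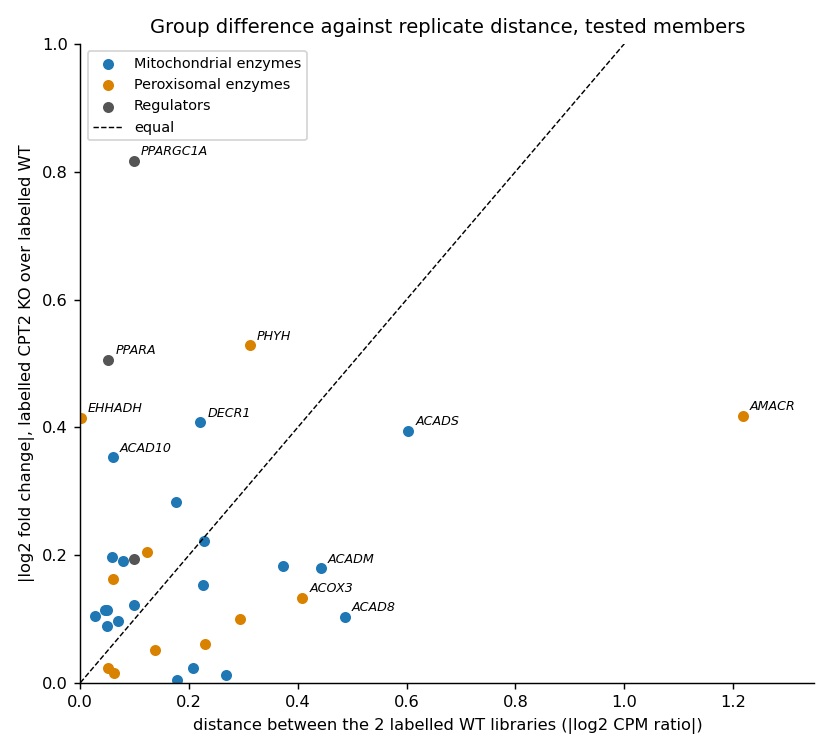
Absolute log2 fold change between groups against the absolute log2 CPM ratio of the 2 libraries labelled WT for the 34 tested members, with a dashed line where both are equal. Of the members, 16 lie below the line, AMACR and ACADS with the widest replicate distance, and PPARGC1A, PPARA, EHHADH and ACAD10 lie well above it.

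Summed over all 22 genes, the mitochondrial enzymes came to 298 and 296 TMM-scaled CPM per kilobase in the libraries labelled CPT2 KO, against 295 and 291 in those labelled WT. The 11 peroxisomal genes summed to 79.3 and 79.5 against 82.4 and 81.3 on this scale. In TPM the mitochondrial sum was 1017 and 972 in the libraries labelled CPT2 KO and 1167 and 1024 in those labelled WT, so its direction turned with the scale. TPM is a share of all transcripts, and mitochondrially encoded transcripts took 29.3% and 28.4% of all TPM in the libraries labelled CPT2 KO and 17.1% and 27.6% in those labelled WT. The peroxisomal sum was 271 and 261 TPM against 326 and 286 TPM. Each of these 4 sums had an exact two-sided permutation p = 0.333, the smallest that 2 against 2 allows.

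Neighbouring genes of the pathway gave 0 calls in edgeR. Of 18 tested genes of the carnitine shuttle and acyl-CoA activation 0 were called (median log2 fold change -0.15), with SLC27A2 and SLC27A1, acyl-CoA synthetases that take up fatty acids, at -0.60 and -0.71 (edgeR adjusted p = 0.469 and 0.481). Other peroxisomal enzymes and transporters had 0 of 17 (median 0.015), with SLC25A17, a carrier of the peroxisomal membrane, at 0.57 and NUDT19, a CoA hydrolase, at -0.80 (edgeR adjusted p = 0.552 and 0.612). Peroxins, which build peroxisomes, had 0 of 16 (median -0.10), with PEX5, the import receptor, at -0.29 and PEX11G at -0.76 (edgeR adjusted p = 0.641 and 0.644). Odd-chain and branched-chain breakdown had 0 of 17 (median -0.076), with PCCB, a subunit of propionyl-CoA carboxylase, at -0.34 and HIBADH, of valine breakdown, at -0.27 (edgeR adjusted p = 0.523 and 0.644). Nuclear receptors and coactivators of the pathway had 0 of 10 (median -0.17), with PRKAA2, a catalytic subunit of AMP-activated kinase, at -0.68 and ACACB, the acetyl-CoA carboxylase of mitochondria, at -0.43 (edgeR adjusted p = 0.547 and 0.570). Without replicate 2 labelled WT, the calls in these lists included CPT1A and SLC25A17 as higher and PRKAA2 as lower. Of 15 hypoxia response genes 0 were called, with a median log2 fold change of -1.05. Without replicate 1 labelled WT the median was 0.20. Without replicate 2 labelled WT, where that group is replicate 1 alone, it was -1.75. The replicate block called NDRG1 and DDIT4 lower, in a setting where 2.12% of all tested genes were called.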

How the data were processed

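RNA-seq of 4 HUES8 libraries was aligned with HISAT2 2.1.0 to hg38 (GRCh38) and counted with featureCounts 1.6.4, per the submitters' processing notes. The deposited table holds raw counts per gene symbol and gene lengths in bases, per the file headers. The annotation release, the strand setting and the treatment of multiply aligned reads were not given in the sources used here. Column names matched the sample titles.

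Counts were filtered with filterByExpr of edgeR 4.0.16 (R 4.3.3) at a minimum of 10 counts, scaled by TMM (trimmed mean of M values) and tested with the quasi-likelihood F-test, robust, with genotype as the only term. P-values were adjusted by Benjamini-Hochberg over all 17564 tested genes at 0.05. SEs are the log2 fold change divided by the square root of F, and intervals use the t distribution with the degrees of freedom of the fit. CPM were scaled by TMM, and TPM were computed with the deposited lengths and used to compare genes. The fit was tested on simulated data. Alternatives were other scalings, filters and tools (DESeq2 1.42.0 and limma-voom of limma 3.58.1), a replicate block, mitochondrially encoded genes left out, a threshold of 0.01 and each library left out.

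Members and lists were chosen with earlier results of these data known. All 36 members are accounted for. Full values are given for the highest 6 mitochondrial and 4 peroxisomal enzymes by mean TPM, members with an unadjusted p under 0.05, MLYCD, the regulators and partner subunits, for CPT2 and for the 2 genes with the smallest p of each pathway list. FGF8, SOX1, SIX6 and CPT1A are named as called genes, and some items are not reported here. Values in full for ACADS, ACAD8, ACAD10, EHHADH, AMACR, ACADL and ACAD11 fall outside this rule and were chosen after they were seen. Positions and exon overlaps come from GENCODE 29, whose exon length equals that in the table for 16 of the 36 members. Of the listed genes, 1 has no row and was not analysed here.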

Additional observations from a re-analysis of the deposited data

How the results depend on the processing

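Of the mitochondrial enzymes and the regulators 0 were called in any of 14 alternative fits, and of the peroxisomal enzymes 1, PHYH, was called lower without replicate 2 labelled WT, where that group is replicate 1 alone and is assumed to vary like the other group. Across all genes, 63 were called higher and 10 lower. With no filter there were 101 and 23, with DESeq2 147 and 47, with limma-voom 28 and 2, with the replicate block 233 and 140 and at a threshold of 0.01 27 and 2. With each library left out in turn there were 23 to 490 higher and 1 to 643 lower calls, the most without replicate 2 labelled WT. The replicate block gave 0 member calls, 1 lower call in the pathway lists and no change to the CPT2 call (log2 fold change 1.78). Libraries share only a number, and the correlation of same-numbered deviations was 0.22. The mitochondrial median was 0.071 by library size only and 0.035 to 0.10 with each library left out. The peroxisomal median was -0.017 to 0.10. The CPT2 log2 fold change was 1.78 with limma-voom (adjusted p = 0.0634) and 1.64 to 1.95 with each library left out. Pathway lists had 0 to 2 higher and 0 to 2 lower calls with each library left out.

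None of the members that changed sign with a library left out was called. ACAA2 ranged from -0.076 to 0.13, ACADM from -0.024 to 0.42, HSD17B4 from -0.098 to 0.049, HACL1 from -0.095 to 0.19 and SCP2 from -0.046 to 0.016. AMACR ranged from -1.09 to 0.28, ACAD8 from -0.12 to 0.37, ECI1 from -0.25 to 0.018, ECI2 from -0.14 to 0.13 and ACAD9 from -0.089 to 0.090, and ACOX3, DECR2 and ABCD3 also changed sign. The summed mitochondrial difference was -101 TPM, -14.3 TPM without mitochondrially encoded genes and 3.48 in TMM-scaled CPM per kilobase, and the peroxisomal one was -39.8 TPM, -20.2 TPM without mitochondrially encoded genes and -2.46 in TMM-scaled CPM per kilobase. With each library left out these TPM differences ran from -173 to -29.4 and from -59.8 to -19.7, smallest without replicate 1 labelled WT. The mitochondrial sum was thus still below 0 without mitochondrially encoded genes and above 0 on the TMM scale, and the cause of the remaining difference was not tested. At a minimum count of 50, PPARGC1A and AMACR were not tested. Their low counts, and those of ACADL and ACAD11, limit what these libraries can show.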
